A study of Mus musculus with 2 samples.

Results

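The adhesion genes described here are 9 genes by which circulating monocytes attach to vessel walls and tissue matrix: the integrin subunits Itgam, Itgal, Itgax, Itga4, Itgb1, Itgb2 and Itgb7, the selectin ligand Selplg and the hyaluronan receptor Cd44. They were chosen by name. All 9 were found among the 22184 genes that had a probe set of their own, and each is represented by its probe set with the highest mean over both arrays. Integrins are membrane receptors made of 1 alpha and 1 beta chain, and a chain reaches the cell surface only as part of such a pair. Monocytes in the blood first roll on selectins through PSGL-1, the product of Selplg. They then arrest when chemokine signals switch their β2 and α4 integrins to the high-affinity state, and cross the vessel wall into tissue such as the inflamed colon.

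RNA came from inflammatory monocytes of the colon's lamina propria, isolated by flow sorting, 1 sample of Nlrp6-/- mice and 1 of wild-type (WT) mice, both labelled as C57BL/6 strain. Nlrp6 encodes a NOD-like receptor that can assemble inflammasomes, and the labels name no allele and give neither the mice's age nor how many were pooled. All mice, WT included, were in a colitis-associated cancer model: the carcinogen azoxymethane (AOM) was injected at 10 mg/kg, dextran sodium sulfate (DSS, an agent toxic to colon epithelium) was given at 2% for 5 days starting on day 5, and cells were taken on day 10. The comparison asks how these monocytes differ when Nlrp6 is missing. Sorted cells were positive for CD11b, high for Ly6C and negative for CD3 and Ly6G. CD11b is the product of Itgam, so the sort itself used 1 of the 9 genes at the protein level in both samples. Each sample was hybridised to 1 Affymetrix Mouse Gene ST 2.1 array, so there are no replicates, no errors and no p-values, and what follows describes these 2 arrays. In bulk RNA, fewer cells of a type and less RNA per cell cannot be told apart.

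Levels are log2 robust multiarray average (RMA) values, on which a difference of 1 is a doubling. Levels ran from 1.14 to 12.34 in Nlrp6-/- and from 1.14 to 12.01 in WT. A gene counted as measured if it lay above a floor on at least 1 array, and 9535 genes did. The floor came from 1384 probe sets of olfactory and vomeronasal receptor genes, at their 95th percentile, which was 3.22 in Nlrp6-/- and 3.26 in WT. Nlrp6 itself was below the floor on both arrays, at 2.67 in Nlrp6-/- and 2.32 in WT, so it gave no check of the labels. All 15 monocyte markers with a probe set were measured, with a median difference of 0.07. Ly6c2, which encodes the sorted Ly6C antigen, was at 9.36 in Nlrp6-/- and 9.06 in WT. All 13 measured epithelial markers were higher in Nlrp6-/- (median 0.99), as were all 8 measured B and plasma cell markers (median 0.70). Of these, Krt19, Vil1 and Tnfrsf17 passed the floor in Nlrp6-/- only, so the floor rule itself favoured a higher value. The B cell genes Ms4a1 and Pax5 passed it on neither array and were left out, with differences of -0.22 and -0.32. Markers of other cells are given with the results they touch below.

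None of the 9 adhesion genes differed by 1.5-fold between the genotypes. All 9 were well above the floor on both arrays, and also above a second floor set at those receptors' 99th percentile. Differences, always Nlrp6-/- minus WT, ran from -0.45 for Itgb1 to 0.12 for Itgb7, with a median of -0.12. Of the 9 genes, 6 lay below their WT level and 3 above it. Among all measured genes the median difference was 0.01, and 48.4% lay below their WT level. At 1.5-fold, 6.21% of all measured genes were higher and 3.05% lower, and at 2-fold 1.62% were higher and 0.325% lower. With 9 genes, counts of 0 are close to these shares. Past a smaller step of 0.32 on the log2 scale, Itgb1 and Itgb2 were lower and no member was higher, against 13.2% of measured genes lower and 16.9% higher. Of the 4306 genes above the second floor on both arrays, as all members were, 15.6% were lower and 17.0% higher by this step. At 1.5-fold 4.18% of them were lower and 6.25% higher.

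**Figure D1:**
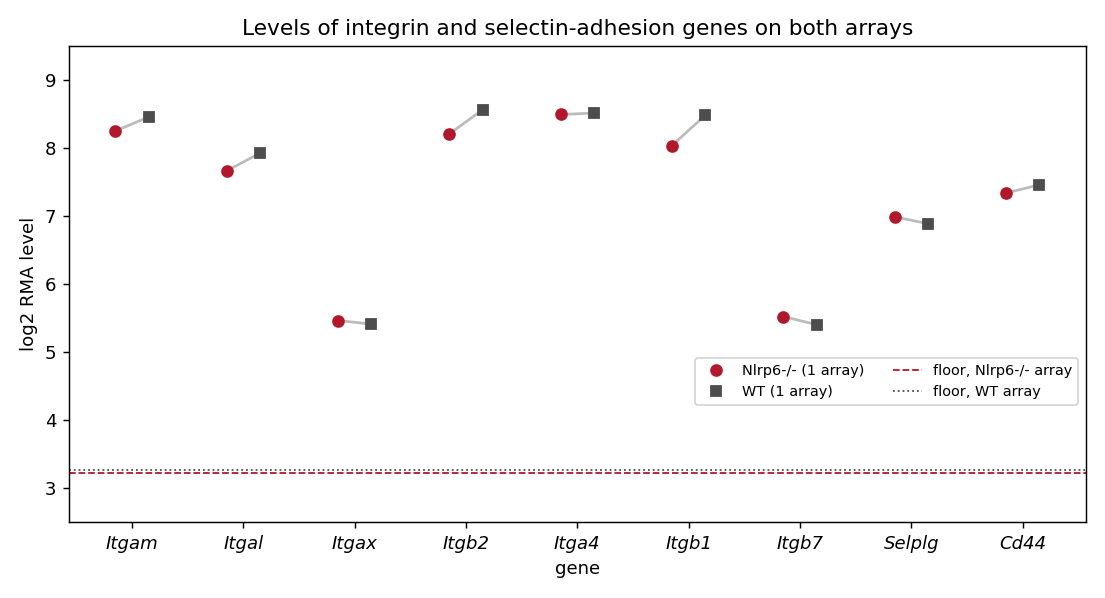
Log2 RMA level (vertical axis) of each of the 9 adhesion genes (horizontal axis) on the Nlrp6-/- array (red circles) and the WT array (grey squares), joined by a line, with both detection floors as horizontal lines. The lines for Itgb1 and Itgb2 are the steepest, and levels of different genes are not comparable because each has its own probes.

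The β2 integrins are the leukocyte-specific family. Itgb2 encodes CD18, the β chain they all share, whose loss in people causes leukocyte adhesion deficiency. It was at 8.21 in Nlrp6-/- and 8.56 in WT, a difference of -0.36, which is 0.781 of the WT level on the linear scale. Of all measured genes, 12.4% had a difference as low or lower.

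Itgam encodes the αM chain CD11b, which with CD18 forms Mac-1, the complement receptor 3 that binds ICAM-1, fibrinogen and complement fragments. It was at 8.25 in Nlrp6-/- and 8.46 in WT, a difference of -0.21. Itgal encodes the αL chain CD11a, which with CD18 forms LFA-1, a receptor for the ICAMs. It was at 7.66 in Nlrp6-/- and 7.92 in WT, a difference of -0.26. Both α chains thus lay below WT together with their β chain, by less than the β chain did. Itgax encodes the αX chain CD11c, which forms complement receptor 4 and is also widely used to identify dendritic cells and tissue macrophages. It went the other way by a small step, at 5.46 in Nlrp6-/- and 5.41 in WT, a difference of 0.05.

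The α4 and β1 chains form VLA-4, the receptor by which monocytes bind VCAM-1 on activated endothelium and fibronectin in the matrix. Itgb1, whose β1 chain also pairs with the collagen, laminin and fibronectin-binding α chains of most cell types, had the largest difference of the 9 genes. It was at 8.04 in Nlrp6-/- and 8.48 in WT, a difference of -0.45, or 0.734 of the WT level, and 7.74% of measured genes had a difference as low or lower. Itga4 was almost level between the arrays, at 8.49 in Nlrp6-/- and 8.51 in WT. The α4 chain pairs also with β7, and α4β7 binds MAdCAM-1 on gut vessels, the route by which lymphocytes home to the intestine. Itgb7 was at 5.52 in Nlrp6-/- and 5.40 in WT, a difference of 0.12 and the highest of the 9.

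Partners of 1 heterodimer could be compared through their differences within the same pair of arrays. For LFA-1 the α chain's difference exceeded the β chain's by 0.10, and for Mac-1 by 0.15. The gap was wider for CR4, at 0.41, and for VLA-4, at 0.43, because in these pairs only the β chain lay clearly below WT. For α4β7 it was -0.14. As a scale for such gaps, 422 genes had several probe sets above both floors, and the probe sets of 1 gene disagreed in their difference by a median of 0.31 and a 90th percentile of 0.79. The CR4 and VLA-4 gaps were at least as large as 62.3% and 64.2% of these disagreements within single genes. The differences of Itgb1 and Itgb2 alone exceeded the median disagreement, and none of the 9 exceeded the 90th percentile.

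**Figure D2:**
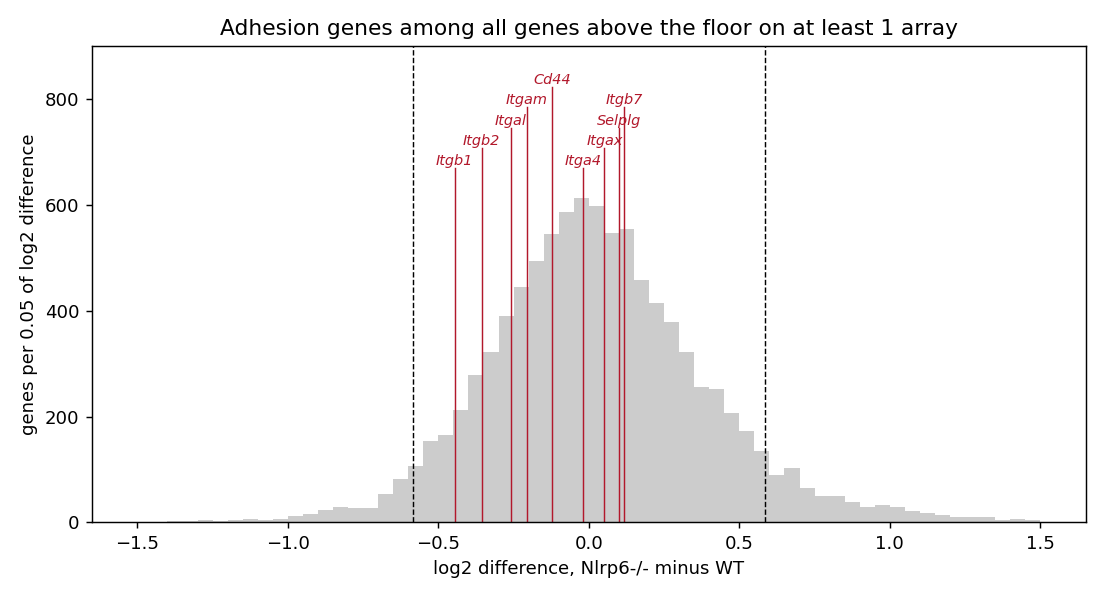
Number of genes per 0.05 of log2 difference (grey bars) over the genes above the floor on at least 1 array, with each adhesion gene's difference as a red line and dashed lines at 1.5-fold. All 9 lie between the dashed lines, and 41 genes with a difference beyond 1.5 are outside the axis.

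Promoter sequence is shown for 4 integrin genes, Itgb1 and Itgam, which lay below WT, and Itgax and Itgb7, which did not, a choice made after their values were seen. Each window runs from 250 bases before to 50 bases after the annotated start, 5′ to 3′ on the gene's strand, from RefSeq on GRCm38.p6. Of the 9 genes 6 had an entry. Capitals mark 3 short motifs searched on both strands: GAGGAA, a core of the sites of PU.1, the master regulator of myeloid genes, TGTGGT, a core of RUNX sites, and the GC box GGGCGG bound by Sp1. Of 32851 promoter windows, 28.3% hold GAGGAA, 16.8% TGTGGT and 35.7% GGGCGG.
Itgb1 (chr8:128685404-128685703, plus strand): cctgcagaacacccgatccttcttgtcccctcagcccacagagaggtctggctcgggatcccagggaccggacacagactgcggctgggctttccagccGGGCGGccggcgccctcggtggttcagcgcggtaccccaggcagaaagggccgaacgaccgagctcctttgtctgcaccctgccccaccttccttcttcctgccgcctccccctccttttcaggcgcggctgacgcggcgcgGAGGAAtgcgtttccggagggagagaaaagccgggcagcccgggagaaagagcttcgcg
Itgam (chr7:128062390-128062689, plus strand): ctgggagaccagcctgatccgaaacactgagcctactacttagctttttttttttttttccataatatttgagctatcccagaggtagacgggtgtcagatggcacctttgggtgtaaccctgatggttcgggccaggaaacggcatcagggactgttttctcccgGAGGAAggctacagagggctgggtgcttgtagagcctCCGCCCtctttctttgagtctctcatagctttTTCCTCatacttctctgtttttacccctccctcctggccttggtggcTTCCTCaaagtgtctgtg
Itgax (chr7:128129300-128129599, plus strand): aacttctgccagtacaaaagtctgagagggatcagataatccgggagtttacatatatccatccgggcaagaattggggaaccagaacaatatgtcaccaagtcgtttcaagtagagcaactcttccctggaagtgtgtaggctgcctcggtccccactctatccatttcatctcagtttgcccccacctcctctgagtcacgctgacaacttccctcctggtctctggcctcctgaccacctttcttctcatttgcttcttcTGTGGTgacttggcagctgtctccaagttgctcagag
Itgb7 (chr15:102231886-102232185, minus strand): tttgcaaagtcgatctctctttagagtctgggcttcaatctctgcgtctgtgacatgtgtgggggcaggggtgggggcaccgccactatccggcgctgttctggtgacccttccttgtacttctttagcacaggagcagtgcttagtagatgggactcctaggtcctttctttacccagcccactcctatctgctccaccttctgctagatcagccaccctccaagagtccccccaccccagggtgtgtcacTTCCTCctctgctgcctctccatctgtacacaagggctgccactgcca

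The Itgam window held 3 matches to GAGGAA, read as TTCCTC on the opposite strand in 2 of them, and 1 GC box. The Itgb1 window held 1 GAGGAA and 1 GC box and had 67.3% G and C. Itgax, which follows Itgam on chromosome 7 with 0 protein-coding genes between them, held 1 TGTGGT and neither other motif. Itgb7 held 1 GAGGAA match, as TTCCTC. The other entries were Cd44, with 2 GAGGAA matches and 1 GC box, and Itga4, with 1 TGTGGT and 1 GC box. These letter matches are a description of the windows and are not known to be bound in these cells.

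Selplg encodes PSGL-1, the sugar-bearing stalk that selectins bind. It had 2 probe sets. The brighter was at 6.99 in Nlrp6-/- and 6.89 in WT, a difference of 0.10, and the other at 5.80 in Nlrp6-/- and 5.95 in WT, a difference of -0.14. The probe sets thus disagreed in sign, by 0.24, so these arrays give no direction for Selplg. Cd44, which encodes the main receptor for hyaluronan in the matrix, was at 7.34 in Nlrp6-/- and 7.46 in WT, a difference of -0.12.

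Small differences need a scale too. The 1374 olfactory and vomeronasal receptor genes, which colon monocytes are not known to express, had differences with a standard deviation (SD) of 0.19. Of the 9 adhesion genes, 5 differed by less than that (Itgax, Itga4, Itgb7, Selplg and Cd44) and 4 by more (Itgb1, Itgb2, Itgal and Itgam). Itgam was barely past it, and was inside it with the median difference subtracted or the loess curve subtracted, at -0.19 in both cases. This SD comes from dim probe sets and from the same 2 arrays, so it does not stand in for the spread between mice of 1 genotype.

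**Figure D3:**
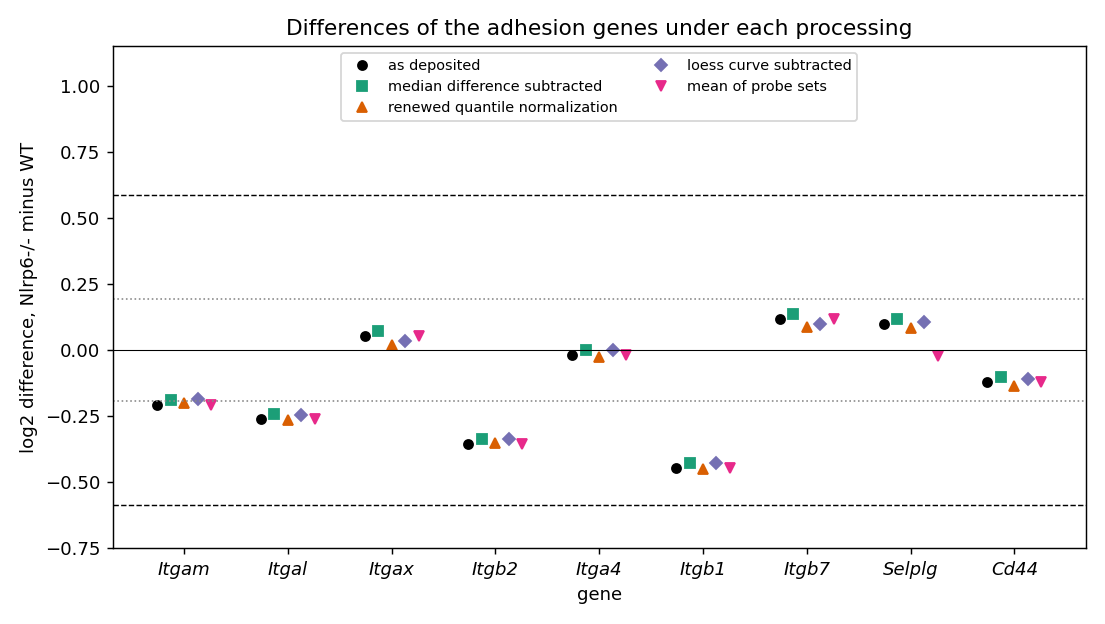
Log2 difference (vertical axis) of each adhesion gene on the deposited values, under 3 other normalizations and with probe sets of a gene averaged. Dashed lines mark 1.5-fold and dotted lines the SD of 0.19 of silent receptor genes; Selplg crosses 0 when its probe sets are averaged, and Itga4 lies near 0 throughout.

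Of 18 other integrin subunits with a probe set, 8 were measured, 4 higher and 4 lower, with a median of -0.05 and a range of -0.45 to 0.68. Itgav, the αv chain that binds RGD-containing matrix proteins, was at 7.96 in Nlrp6-/- and 8.41 in WT, with the same difference of -0.45 as Itgb1. Itgb5, whose β5 chain pairs with αv, was at 6.09 in Nlrp6-/- and 5.41 in WT, higher by 0.68. It was the 1 subunit beyond 1.5-fold, where 6.21% of all measured genes were higher and 3.05% lower. Itga5, which with β1 forms the classical fibronectin receptor, differed by -0.12, and so did Itga9. Below the floor on both arrays were 10 subunits, among them the platelet chain Itga2b, the epithelial chains Itgb4 and Itgb6, and Itgae, which intraepithelial T cells and some dendritic cells carry.

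Among integrin ligands and counter-receptors, 14 of 23 were measured, with a median of 0.11, or 0.07 with dim levels at their bound. With the floor at the 99th percentile the median was -0.08, so its sign depends on dim genes. Of the 14, 2 were higher by 1.5-fold and 0 lower, where 6.21% of all measured genes were higher and 3.05% lower. Icam1, the ligand of LFA-1 and Mac-1, was at 8.85 in Nlrp6-/- and 8.98 in WT. Vcam1, the ligand of VLA-4, was at 6.39 in Nlrp6-/- and 6.25 in WT, and Madcam1, the ligand of α4β7, was below the floor on both arrays. Icam1 and Vcam1 thus differed by less than the SD of silent receptor genes. Cdh1, which encodes E-cadherin of epithelial junctions and is the ligand of αEβ7, was at 5.43 in Nlrp6-/- and 3.96 in WT, higher by 1.47. It was the 1 ligand beyond 2-fold, but not with its probe sets averaged (0.88) or with the floor at the 99th percentile, where its WT level is dim and the bound is 0.34. The matrix glycoprotein Tnc was higher by 0.59, the junctional molecule F11r (JAM-A), which LFA-1 can bind, was at -0.49, and Icam5 was above the floor in Nlrp6-/- only, with a bound of 0.26.

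Of 21 selectin and selectin-ligand genes with a probe set, 15 were measured, 7 higher and 8 lower, with a median of -0.02. None was beyond 1.5-fold, where 6.21% of all measured genes were higher and 3.05% lower. PSGL-1 binds selectins only after sulfation and sialylated, fucosylated glycans have been added. Tpst1, a tyrosine sulfotransferase that modifies PSGL-1, was at 4.51 in Nlrp6-/- and 3.96 in WT, and the sialyltransferase gene St3gal3 at 5.27 in Nlrp6-/- and 5.75 in WT. Cd24a, a glycoprotein that can carry P-selectin ligands and is abundant on epithelium and granulocytes, was higher by 0.56. Chst2, a sulfotransferase, was above the floor in WT only, with a bound of -0.14. Fut7, the fucosyltransferase that completes selectin ligands in leukocytes, was below the floor on both arrays, as was Gcnt1.

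The machinery that couples integrins to actin had 25 of 29 members measured, 9 higher and 16 lower, with a median of -0.15. Among all measured genes 48.4% lay below their WT level and 3.05% were lower by 1.5-fold. Apbb1ip encodes RIAM, the adaptor that brings talin to integrins downstream of the GTPase Rap1. It was at 7.27 in Nlrp6-/- and 7.93 in WT, a difference of -0.66, the 1 member beyond 1.5-fold. Zyx, the focal adhesion protein zyxin, had a difference of -0.58, Lims1, the PINCH adaptor, of -0.48 and Vcl, vinculin, of -0.47. Talin-1 and kindlin-3, the proteins that bind β tails directly and switch the integrin on, differed less. Tln1 was at 6.62 in Nlrp6-/- and 6.80 in WT, and Fermt3 at 5.68 in Nlrp6-/- and 5.82 in WT. Past 0.32 on the log2 scale, 6 of the 25 were lower and 1 was higher, where 13.2% of all measured genes were lower and 16.9% higher. The higher gene was Itgb1bp1, at 5.50 in Nlrp6-/- and 5.04 in WT, a difference of 0.46.

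Signalling genes downstream of engaged integrins, 27 of 28 of which were measured, had a median of -0.03. Of the 27, 9 were higher and 18 lower, and 1 was lower by 1.5-fold. Among all measured genes 48.4% lay below their WT level and 3.05% were lower by 1.5-fold. Plcg2, a phospholipase C that leukocyte integrins activate, had a difference of -0.62, the kinase gene Syk of -0.45 and the exchange factor gene Vav1 of -0.41. Pik3cg, a phosphoinositide 3-kinase of leukocytes, was higher by 0.54. The adaptors Tyrobp and Fcer1g, which carry the β2 signal to Syk, were almost level, with Tyrobp at 10.53 in Nlrp6-/- and 10.50 in WT, and Fcer1g at 10.60 on both arrays.

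Around Cd44, 14 of 22 genes of hyaluronan handling and membrane linkage were measured, with a median of -0.09. At 1.5-fold, 2 were higher and 3 lower, where 6.21% of all measured genes were higher and 3.05% lower. Ezr, the gene of ezrin, which ties CD44 to actin, was at 6.73 in Nlrp6-/- and 7.38 in WT, a difference of -0.66. Its relative moesin lay lower too, with Msn at 9.12 in Nlrp6-/- and 9.55 in WT. For radixin, Rdx was at 6.34 in Nlrp6-/- and 6.53 in WT, apart by less than the SD of silent receptor genes. Tnfaip6, whose product TSG-6 crosslinks hyaluronan during inflammation, went the other way, at 6.14 in Nlrp6-/- and 4.96 in WT, higher by 1.17. The hyaluronan synthase gene Has1 was higher by 0.68 and Has3 was at -0.64, both close to the floor. Adam17, a sheddase of membrane proteins, was at 7.84 in Nlrp6-/- and 8.46 in WT. It was named after its value was seen, as were Tln1, Fermt3, Tyrobp, Fcer1g, Msn, Rdx, Fut7, Gcnt1 and Ccr2.

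Receptors for transendothelial migration and monocyte chemokines, 14 of 17 measured, had a median of 0.15, or 0.08 with dim levels at their bound. None was beyond 1.5-fold, where 6.21% of all measured genes were higher and 3.05% lower. Ccr1, a receptor for inflammatory CC chemokines, was at 6.29 in Nlrp6-/- and 5.87 in WT, and S1pr1, the sphingosine 1-phosphate receptor, at 3.71 in Nlrp6-/- and 4.19 in WT. Cdh5, the endothelial VE-cadherin, had a difference of -0.39. Cxcr2 was above the floor in Nlrp6-/- only, with a bound of 0.30. Ccr2, the receptor by which monocytes leave the bone marrow, was at 6.30 in Nlrp6-/- and 5.98 in WT.

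**Figure D4:**
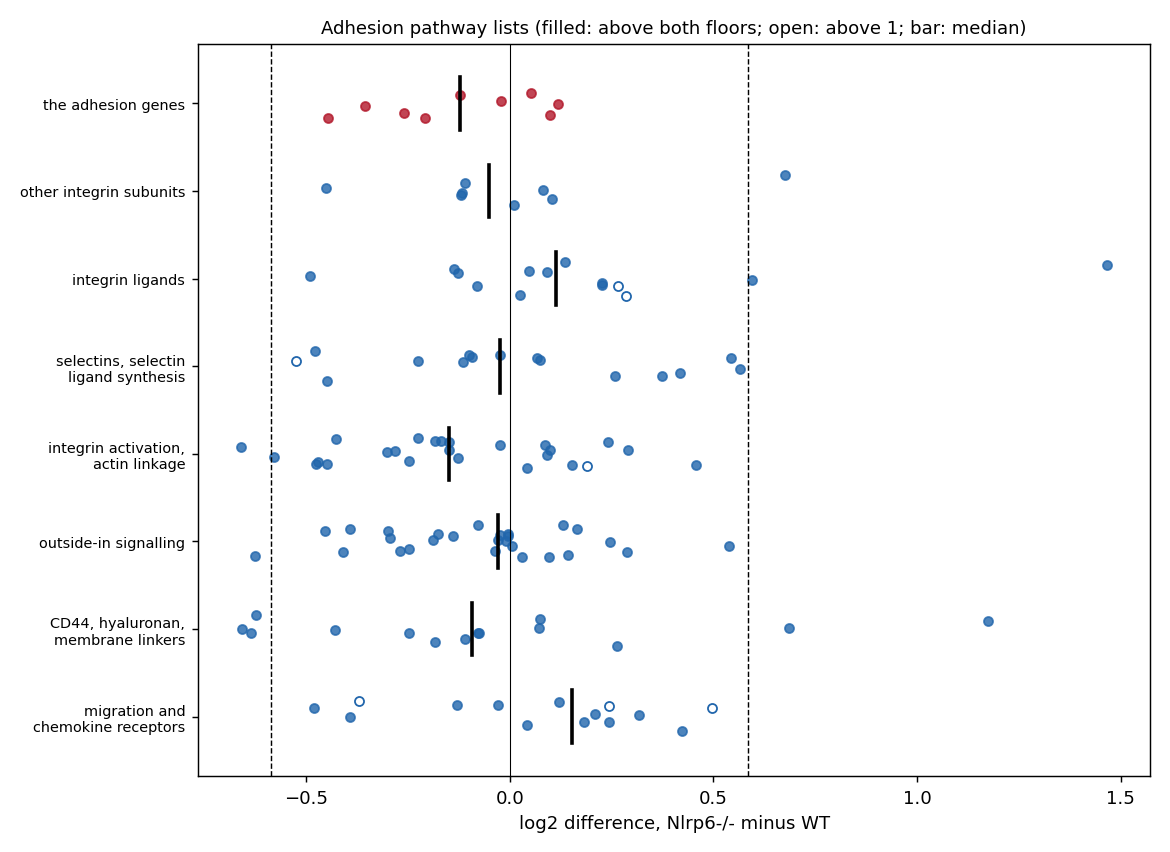
Log2 difference (horizontal axis) of every measured gene in the 9 adhesion genes and the 7 lists around them, with black bars at list medians and dashed lines at 1.5-fold. List medians lie between -0.15 and 0.15, and the points farthest right are Cdh1 and Tnfaip6.

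Markers of some other cells moved with the same comparison, and several adhesion genes are used by those cells. Epithelial markers had a mean log2 level of 5.35 in Nlrp6-/- and 4.41 in WT, led by Lypd8, higher by 1.87, and Muc13, higher by 1.79. Cdh1 is itself on this list, and Itgb1 is expressed by epithelium, stroma and endothelium. B and plasma cell markers averaged 7.15 in Nlrp6-/- and 6.44 in WT, with Mzb1 higher by 1.62 and Jchain by 0.88. No measured marker of these 2 lists was lower, where 48.4% of all measured genes lay below their WT level. Some steps were small, as for Muc2 (0.11), Tff3 (0.15), Car1 (0.15) and Cd79b (0.14), all less than the SD of silent receptor genes. Plasma cells and T cells of the gut carry α4β7, the product of Itga4 and Itgb7. T and NK markers, 8 of 11 measured, averaged 4.82 in Nlrp6-/- and 4.51 in WT, with a median difference of 0.17, 5 higher and 3 lower. Cd8a and Gzma passed the floor in Nlrp6-/- only, at bounds of 0.38 and 1.35, so the floor rule itself favoured a higher value. Cd2 had a difference of -0.20 and Il7r of -0.03. Of the chains of CD3, the antigen the sort excluded, Cd3d was higher by 0.46 and Cd3g by 0.20, while Cd3e had a difference of -0.23. Cd4 was below the floor on both arrays.

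Stromal and endothelial markers, 13 of 14 measured, had a median of 0.07, 9 higher and 4 lower. Mgp was higher by 1.45 and Col1a2 by 1.19, while Cdh5 was at -0.39 and Acta2 at -0.16. Neutrophil markers, 7 of 13 measured, had a median of 0.50, or 0.30 with dim levels at their bound, 5 higher and 2 lower. Retnlg, at a bound of 1.95, and Cxcr2 passed the floor in Nlrp6-/- only. S100a8 and S100a9 were higher by 1.16 and 1.03, while Csf3r and Mmp8 were lower, at -0.05 and -0.17. Ly6g, the antigen the sort excluded, was at 3.58 in Nlrp6-/- and 3.32 in WT, and Mpo, Elane, Ltf, Camp and Ngp of neutrophil granules were below the floor on both arrays. Of the dendritic cell markers 5 of 11 were measured, with a median of -0.02, Cd209a at -0.43 and Btla at 0.30, while Flt3, Zbtb46 and Xcr1 were below the floor, and Itgax was level in the same comparison. Mature macrophage markers had a median of -0.04 over 7 of 12, with Adgre1 at -0.25 and Mertk, above the floor in WT only, at a bound of -0.08. The platelet and mast cell list had 4 of 10 measured, with Pf4 higher by 1.24 and Ppbp at a bound of -0.52. In the monocyte list, 8 higher and 7 lower, F13a1 was higher by 1.06 and Fcgr1 by 0.88. The part of these other cells in the differences of the adhesion genes was not tested.

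**Figure D5:**
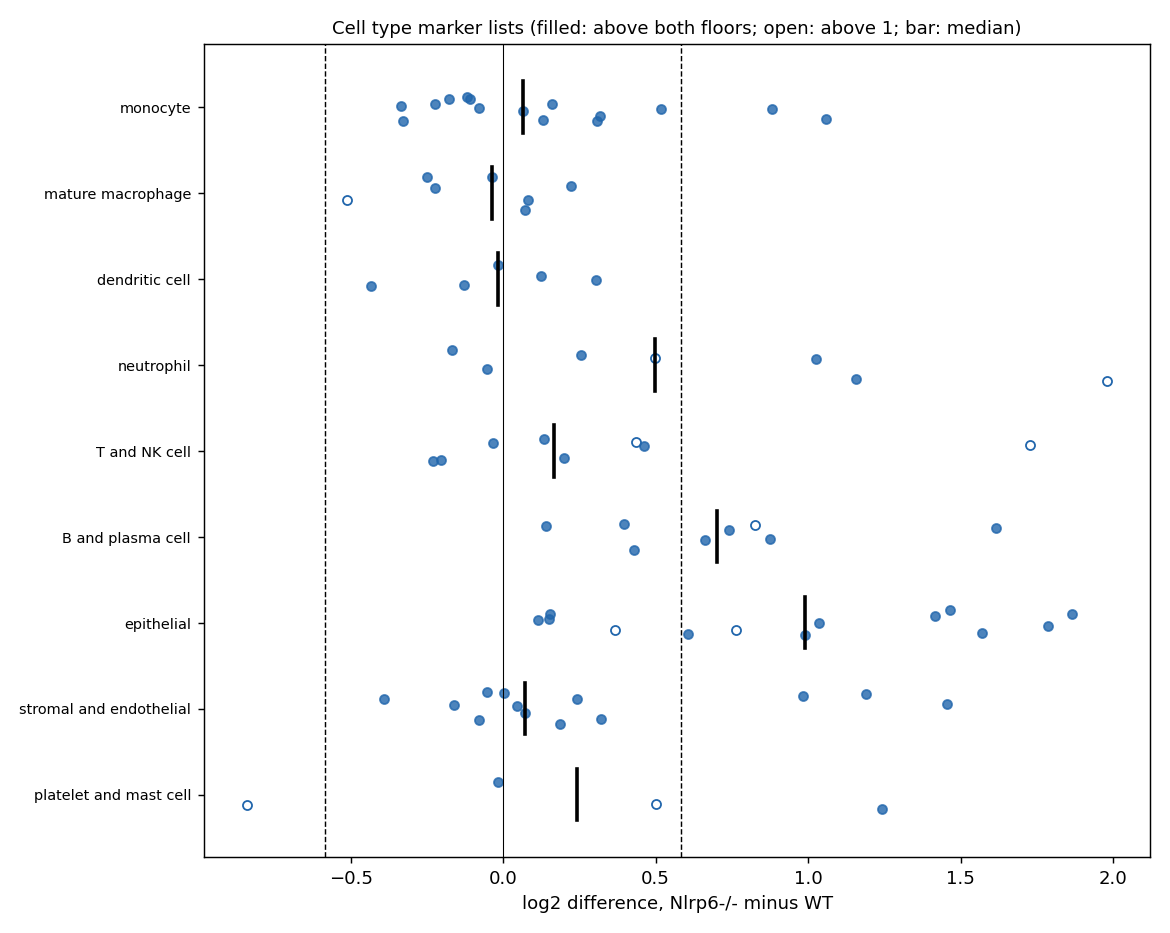
Log2 difference (horizontal axis) of every measured marker in 9 cell type lists, with black bars at list medians and dashed lines at 1.5-fold. The epithelial and the B and plasma cell markers all lie right of 0, while the monocyte markers lie on both sides.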

How the data were processed

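RNA from 2 sorted samples was measured, 1 array per genotype, grouped by the genotype in the labels. Per the labels' protocols, cDNA was made from 10 ng of RNA with a NuGEN kit (another field names an Affymetrix kit), biotinylated and hybridised for 20 h at 48 °C. The deposited table holds log2 levels, which the authors computed by RMA with the oligo package in R 2.15.1, per the labels' protocols. RMA makes the arrays' distributions alike, so a shift of all transcripts cannot be seen. Which arrays were normalized together, and the annotation's build, are not given in the sources used here.

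Of 41345 probe sets, 23525 had 1 gene symbol in the platform annotation, 1810 several and 16010 none, and only single-symbol probe sets were named. Where only 1 array lay above its floor, the difference was bounded by replacing the dim level with the higher of that floor and the measured value. The members, the gene lists, the thresholds and the alternatives were chosen with earlier results of these data known. Named were all members, up to 4 of the largest differences in each pathway list, up to 2 of the largest in each marker list, any pathway gene 2-fold apart, and Nlrp6, Icam1, Vcam1, Madcam1 and Ly6c2. Other genes are those whose levels are given for their role, or because they go another way than the named genes of their list. No test was run. The counting steps were tested on simulated data. Alternatives were 3 other normalizations, the mean of probe sets, other floors and a log2 threshold of 0.32, computed with Python 3.11.15, pandas 2.3.3 and statsmodels 0.14.6.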

Additional observations from a re-analysis of the deposited data

Results flagged for a closer look

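Outside the single-symbol probe sets, 1 probe set is annotated to both Itga4 and its neighbour Cerkl. It lay just above the floor, at 3.47 in Nlrp6-/- and 3.32 in WT, and was not used for Itga4.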

How the results depend on the processing

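No paired analysis was possible because each genotype has 1 array. Under the 3 other normalizations no member's difference moved by as much as 0.19, the SD of silent receptor genes. Itgb1 ranged from -0.45 to -0.43, Itgb2 from -0.36 to -0.34, Itgal from -0.27 to -0.24, Itgam from -0.21 to -0.19 and Itga4 from -0.03 to 0.00. With the mean of both probe sets Selplg was at -0.02, against 0.10 with the brighter. Past a log2 difference of 0.32 the lower count was 2 for the members, 1 for other integrin subunits and 1 for integrin ligands. It was 6 for integrin activation, 4 for outside-in signalling, 4 for the CD44 list, 2 for selectin genes and 3 for migration receptors. The higher count was 0 for the members, 4 for selectin genes, 2 for integrin ligands and 2 for the CD44 list. It was 1 each for other integrin subunits, integrin activation, outside-in signalling and migration receptors. At this threshold 16.9% of all genes were higher and 13.2% lower. With renewed quantile normalization 2 integrin activation genes were lower by 1.5-fold. With the loess curve subtracted 1 integrin ligand and 1 selectin gene were higher by 1.5-fold. With the mean of probe sets 0 ligands were 2-fold higher, as Cdh1 was then at 0.88. With the floor at the 99th percentile 0 ligands were higher by 1.5-fold or by 2-fold, and 1 gene of the CD44 list was higher by 1.5-fold. At that floor the median changed sign to -0.08 for integrin ligands and to 0.07 for selectin genes. Cdh1 was then counted at a bound of 0.34. Without a floor, which adds silent genes, 3.21% of all genes were higher and 1.65% lower by 1.5-fold, and 0.753% higher and 0.149% lower by 2-fold. The median then changed sign to 0.05 for the CD44 list and to 0.05 for selectin genes. Over genes above the floor on both arrays the median of selectin genes was 0.02. Of the 9 genes Itgax and Itgb7 lay closest to the floor, and the single array per genotype limits every value.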

Other observations

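Itgal, Itgam and Itgax lie on mouse chromosome 7, which also carries Nlrp6. In the RefSeq gene order of GRCm38.p6, 35 protein-coding genes separate Itgal from Itgam, and 127 separate Itgax from Nlrp6. Itgad, which follows Itgax directly, was below the floor on both arrays. Pycard, the inflammasome adaptor gene that Trim72 alone separates from Itgam in this order, was at 6.39 in Nlrp6-/- and 6.18 in WT, a gene named after its value was seen. The 3 integrin genes on this chromosome differed by -0.26 (Itgal), -0.21 (Itgam) and 0.05 (Itgax). Whether the region around Nlrp6 differs in origin between the mouse lines was not tested.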
